A study of Mus musculus with 7 samples.

Results

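The genes of oxidative phosphorylation, the process by which mitochondria turn the oxidation of nutrients into ATP, were followed in the embryonic mouse pancreas at E15.5. Members were the protein-coding genes for the structural subunits of complexes I to V, chosen by symbol (mt-Nd, mt-Co, mt-Cytb, mt-Atp, Nduf subunits, Sdha to Sdhd, Uqcr, Cyc1, Cox4i to Cox8 and Atp5). The rule found 98 of the 27138 features in the count table, and 94 of them had enough reads to be tested. Of the 98, 13 are encoded on the mitochondrial chromosome (7 for complex I, 1 for complex III, 3 for complex IV and 2 for complex V) and 85 in the nucleus. The nuclear members belong to complex I (38), complex II (4), complex III (9), complex IV (17) and complex V (17). The rule also selects Cox8c and a second identifier of Atp5o in the annotation, and these were not analysed here.

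Polyadenylated RNA of embryonic pancreas was sequenced in 4 WT and 3 cKO libraries, 1 animal each. The gene 2610035D17Rik is the ortholog in mouse of the non-coding human RNA LINC00673, and the WT embryos (mLINC00673fl/fl) had its alleles floxed, without Cre. The cKO embryos combined the floxed alleles with Pdx1Cre, whose promoter is active in the pancreatic epithelium, so the other cells of the organ keep the locus. Cre was present in cKO only, so the deletion and the presence of Cre cannot be told apart. Libraries held 14883918 to 17767373 counts. Levels are in CPM, the reads of a gene relative to a library total that was first scaled between libraries (TMM). With this scaling the CPM of all tested features summed to 958789 in WT replicate 1 and 1050465 in WT replicate 4. The targeted gene was at 9.08, 8.76, 7.93 and 8.83 CPM in WT and at 2.01, 3.38 and 2.27 CPM in cKO, so the groups did not overlap. All 10 listed markers of pancreatic epithelium were detected, with summed levels of 7154 to 13400 CPM. In such bulk samples, fewer cells of a type and less RNA per cell cannot be told apart.

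Complexes I, III and IV pass electrons to oxygen and pump protons across the inner mitochondrial membrane, complex II feeds in electrons from succinate, and complex V (ATP synthase) uses the proton gradient to make ATP. The mitochondrial genome, a small circle present in many copies per cell, encodes a few core subunits of every complex except complex II, while all others are transcribed in the nucleus, translated in the cytosol and imported. Copies of mitochondrial DNA have also been inserted into nuclear chromosomes, and reads from the genuine transcripts can match such copies. The comparison asked whether the nuclear and the mitochondrial subunit transcripts differ between WT and cKO, and whether the 2 sets differ from each other.

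Stretches of 60 bases from 2 mitochondrial genes and from their closest annotated nuclear copies on chromosome 1 are shown because reads from identical stretches cannot be told apart. Transcript sequences are from GENCODE M21, and capitals mark bases that differ within a pair.
mt-Co2: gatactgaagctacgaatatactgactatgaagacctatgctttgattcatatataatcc
Gm28661: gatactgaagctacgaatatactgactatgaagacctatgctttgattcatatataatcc
mt-Nd3: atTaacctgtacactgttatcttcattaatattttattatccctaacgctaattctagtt
Gm28438: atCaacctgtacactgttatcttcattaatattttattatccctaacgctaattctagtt

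The mt-Co2 stretch holds no difference from its copy, and the 681 aligned bases of mt-Co2 and the unprocessed pseudogene Gm28661 were identical. Over 345 aligned bases mt-Nd3 and Gm28438 differed at 1, or 99.71% identity. No base differed in the aligned parts of mt-Atp6 and Gm10925, mt-Co3 and Gm28437, and mt-Nd4l and Gm10222. For mt-Nd4, Gm28439 covers 63.6% of the gene without a difference, and for mt-Co1, Gm29216 covers 31.3% with 1 difference.

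The promoters of nuclear members were searched for short motifs, since these genes moved together across libraries. Promoter windows of 300 bases (250 before to 50 after the start, RefSeq, build GRCm38.p6) were found for 67 of the 85 nuclear members. The motif GCGCATGCG, the core of the site of nuclear respiratory factor 1 (NRF1), a known activator of respiratory chain genes, was present on either strand in 8 members (11.9%). It occurred in 3.63% of the tested genes with a window. The length of this motif was set after matches of a longer form had been seen, so these shares are no test. Stretches around it are shown 5′ to 3′ on the strand of the gene, with matches on either strand in capitals, for the 5 members whose stretch ends before the start.
Cox6a1, chr5:115349086-115349145, minus strand: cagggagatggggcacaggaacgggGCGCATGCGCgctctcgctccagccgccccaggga
Ndufa11, chr17:56717677-56717736, plus strand: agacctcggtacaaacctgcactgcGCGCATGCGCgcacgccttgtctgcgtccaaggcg
Atp5k, chr5:108434415-108434474, minus strand: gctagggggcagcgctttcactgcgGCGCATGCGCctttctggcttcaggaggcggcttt
Atp5g2, chr15:102671055-102671114, minus strand: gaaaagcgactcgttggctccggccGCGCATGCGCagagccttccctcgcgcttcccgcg
Atp5l, chr9:44920949-44920992, minus strand: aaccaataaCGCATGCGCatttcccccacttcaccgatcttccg

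The other 3 members with a match were Ndufa8, Uqcr11 and Uqcrc1. The YY1 motif AAGATGGC was in 9 members (13.4%, against 4.71% of tested genes) and the GABPA motif CCGGAAGT in 5 (7.46%, against 8.08%). The GC box GGGCGG was in 27 members (40.3%, against 66.2%) and TATAAA in 7 (10.4%, against 9.21%). Both strands were searched for each motif, and a match describes letters in this window only. None of the 5 motifs contains another.

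Summed over all 13 mitochondrially encoded members, WT replicates 1 to 4 held 13878, 23147, 18746 and 26735 CPM and cKO replicates 1 to 3 held 20063, 21635 and 25746 CPM. WT replicate 1 was the lowest library, WT replicate 4 the highest, and all 3 cKO libraries lay between them. The group means were 20627 ± 5560 CPM (SD, n = 4) in WT and 22481 ± 2934 CPM (SD, n = 3) in cKO, a difference smaller than the spread in either group. These members took 1.45% to 2.62% of all counts in a library. For mt-Co2, mt-Co3, mt-Atp6, mt-Nd4l and mt-Nd3, 97.99% to 100% of 50-base windows also occur in another annotated gene. Their WT means were 61.2, 26.7, 25.7, 4.9 and 2.23 CPM. The treatment of reads that match several places is not stated, so these sums, and the ratios below, are uncertain as levels of the mitochondrial genome.

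Over the 85 nuclear members the sums were 9089, 10048, 9133 and 10449 CPM in WT and 11604, 10102 and 9327 CPM in cKO. Here cKO replicate 1 was the highest library, and the other 2 cKO libraries lay within the WT range. Means were 9680 ± 677 CPM (SD, n = 4) in WT and 10344 ± 1158 CPM (SD, n = 3) in cKO. The highest library exceeded the lowest 1.93-fold for the mitochondrial sum and 1.28-fold for the nuclear sum.

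The ratio of mitochondrial to nuclear counts was 1.53, 2.30, 2.05 and 2.56 in WT and 1.73, 2.14 and 2.76 in cKO. Both groups covered nearly the same range, with means of 2.11 ± 0.44 (SD, n = 4) and 2.21 ± 0.519 (SD, n = 3). On the log2 scale the group difference, cKO minus WT, was 0.07, against SDs of 0.322 in WT and 0.338 in cKO. Leaving out WT replicate 1 gave −0.08, cKO replicate 3 gave −0.11, and cKO replicate 1 gave 0.23. No test was made of these sums, since their members were chosen together.

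**Figure D1:**
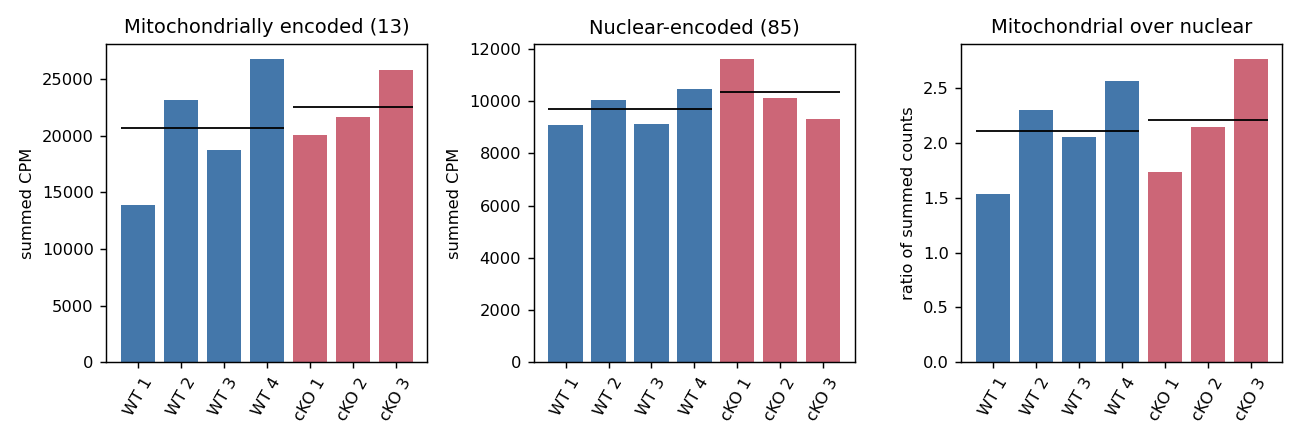
Summed CPM of the 13 mitochondrially encoded members, summed CPM of the 85 nuclear-encoded members and the ratio of their counts, as 1 bar per library (blue, WT; red, cKO); horizontal lines are group means. WT replicate 1 has the lowest mitochondrial sum (13878 CPM), and cKO replicate 1 the highest nuclear sum (11604 CPM).

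No member passed the test in either genome. With p adjusted by Benjamini-Hochberg over 16910 features, the quasi-likelihood test of edgeR called 0 of 94 members, while it called 0.00591% of all features. At an unadjusted p under 0.05 it listed 0 of 94 members, against 1.38% of all features (0.668% higher and 0.716% lower). DESeq2, which called 0.0769% of all features, and limma-voom (0.00591%) also called 0 members. Every tested member had an edgeR adjusted p of 1.0. The targeted gene, lower in every cKO library than in any WT library, was not called by edgeR either (adjusted p = 0.0902). For 74 of the 81 nuclear members tested, the 95% interval of the fold change lay between a 1.5-fold decrease and a 1.5-fold increase, and for 79 it lay within 2-fold. Of the 13 mitochondrial members, 2 had intervals within 1.5-fold and 7 within 2-fold.

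Most members had a fitted value above 0. Among nuclear members 76 of 81 did (93.8%), with a median log2 fold change of 0.11, and among mitochondrial members 11 of 13 (84.6%), with a median of 0.14. Over all tested features 46.0% lay above 0 and the median was −0.01. Without cKO replicate 1 the nuclear count was 45 of 81 and the median 0.01, and without cKO replicate 3 that median was 0.20. Without WT replicate 4 the mitochondrial count was 11 of 13 and the median 0.28. Without WT replicate 1 these were 7 of 13 and 0.0012, and without cKO replicate 3 they were 7 of 13 and 0.02.

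**Figure D2:**
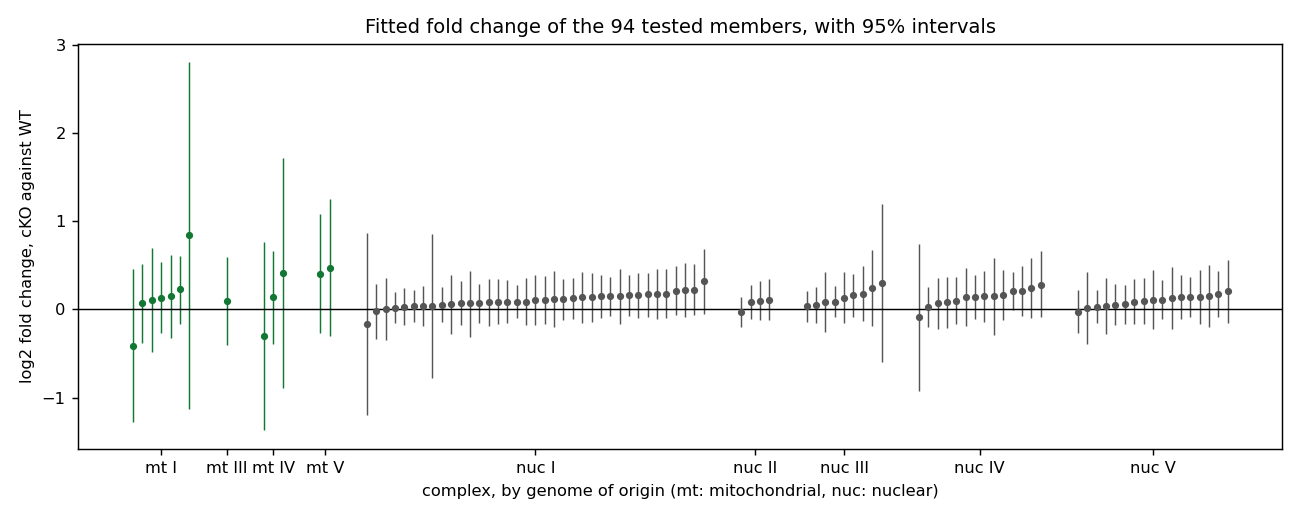
Fitted log2 fold change (y axis, cKO against WT) of the 94 tested members with 95% intervals, grouped along the x axis by complex and genome of origin and ordered by value within each group (green, mitochondrially encoded; grey, nuclear-encoded). Every interval covers 0, and the intervals of mt-Nd4l, mt-Co3 and mt-Co2 are wide.

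The library pattern differed between the genomes. All 13 mitochondrial members had their lowest level in WT replicate 1, and the highest was in WT replicate 4 for 6 of them and in cKO replicate 3 for 5. Of the 81 nuclear members, 69 were highest in cKO replicate 1, and the lowest library was WT replicate 1 for 30, WT replicate 3 for 27 and cKO replicate 3 for 18. In cKO replicate 3 the mitochondrial levels were high and the nuclear levels low, with median deviations from the gene's own mean of 0.25 and −0.10 (log2 CPM). In cKO replicate 1 these were −0.14 and 0.28, but the mitochondrial value was 0.08 over the 6 members of which at most 50% of 50-base windows occur in another annotated gene, and −0.48 over the other 7.

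**Figure D3:**
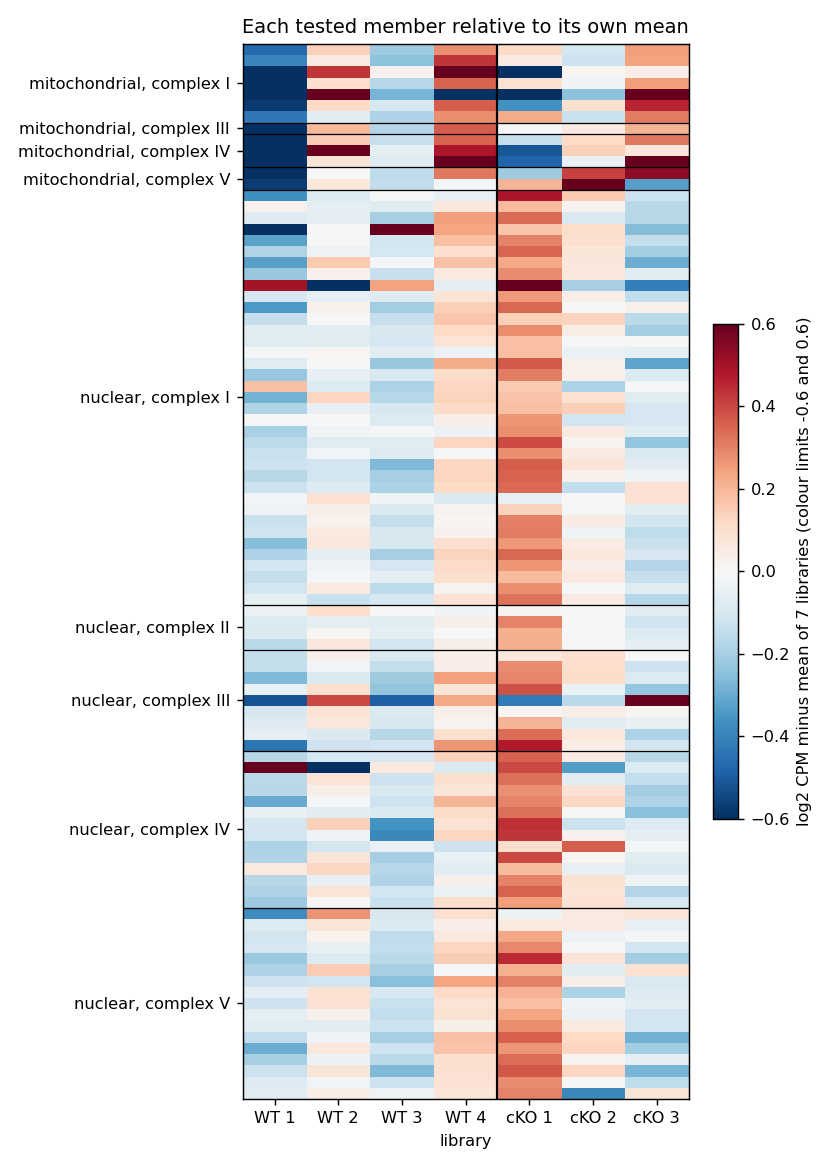
Level of each of the 94 tested members in each library, as log2 CPM minus the gene's mean over the 7 libraries (red, above; blue, below), with rows grouped by genome of origin and complex. The mitochondrial rows are blue in WT replicate 1, and the nuclear rows of every complex are mostly red in cKO replicate 1.

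Other features moved with these libraries, and their part in the result was not tested. The 9 liver markers tested had summed levels of 1922 CPM in cKO replicate 1 and 1241 CPM in WT replicate 4, against 305 to 419 CPM in the other 5 libraries. Erythroid markers (8 of 8 tested) ranged from 963 CPM in WT replicate 1 to 2830 CPM in cKO replicate 1, with 1201 to 2327 CPM in the other WT libraries and 1328 and 1827 CPM in the other cKO libraries. Neuron and glia markers (8 of 8 tested) had 549, 63.3, 405 and 210 CPM in WT and 648, 80.2 and 90.5 CPM in cKO. They were high in WT replicates 1 and 3 and cKO replicate 1, where the median deviations of the mitochondrial members were −0.63, −0.15 and −0.14. They were lower in the other 4 libraries, where these deviations were 0.01 to 0.36. Over the 6 mitochondrial members with at most 50% of windows shared, the 2 ranges overlapped. Their deviations were −0.52, −0.18 and 0.08 in WT replicates 1 and 3 and cKO replicate 1. In WT replicates 2 and 4 and cKO replicates 2 and 3 they were 0.09, 0.32, −0.03 and 0.25. Without WT replicate 4 and cKO replicate 1, the libraries highest in liver markers, 57 of 81 nuclear members lay above 0 with a median of 0.04, and 12 of 13 mitochondrial members with a median of 0.33.

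Genes of the cytosolic ribosome, which also have short transcripts, followed the nuclear members: 67 of 77 were highest in cKO replicate 1, and 74 had a value above 0 with a median of 0.14. For the mitochondrial ribosome, whose proteins make the mitochondrially encoded subunits, these counts were 47 and 60 of 76, with a median of 0.08. Without cKO replicate 1 the counts above 0 were 58 of 77 (median 0.04) and 37 of 76 (median −0.0031). edgeR called 0 genes of either list. Transcript length moved with the fold change over the whole table as well. Among tested features that are not members, the median log2 fold change was 0.08 for transcripts up to 1000 bases, 0.04 up to 2000, −0.01 up to 4000 and −0.06 beyond. Of the shortest class 68.2% lay above 0, and of the longest 24.9%. Nuclear members had medians of 0.14 (48 members), 0.10 (25), 0.04 (6) and 0.06 (2) in the same classes. In cKO replicate 1 the median deviation of the non-members went from 0.21 in the shortest to −0.16 in the longest class.

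**Figure D4:**
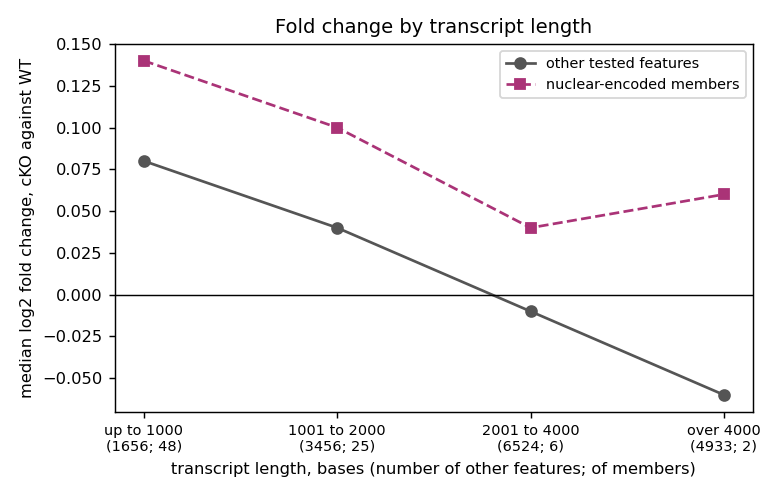
Median log2 fold change, cKO against WT, by transcript length class, for tested features that are not members (circles) and for nuclear-encoded members (squares); numbers in parentheses are features and members per class. Short transcripts have the higher medians, 0.08 among other features and 0.14 among members, and the 2 longer classes hold 6 and 2 members.

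Within the mitochondrial genome, levels per kilobase of transcript in WT fell into separate ranges. On this scale mt-Co1, the catalytic core subunit of cytochrome c oxidase (complex IV), was highest at 5277 CPM per kilobase, followed by mt-Cytb, the cytochrome b of complex III, at 3620 and the complex I subunit mt-Nd1 at 2634. The complex I subunits mt-Nd5, mt-Nd2, mt-Nd6 and mt-Nd4 had 1313, 1260, 1086 and 1033 CPM per kilobase. The neighbours mt-Nd5 and mt-Nd2, and mt-Nd6 and mt-Nd4, lay closer together than their SDs.

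Far below these were the complex IV subunits mt-Co2 at 89.5 and mt-Co3 at 34.0 CPM per kilobase and the complex V subunit mt-Atp6 at 37.8. The complex I subunits mt-Nd4l and mt-Nd3 had 16.5 and 6.42, and mt-Atp8 of complex V had 6.25 CPM per kilobase. Of the 50-base windows of mt-Co2, mt-Co3, mt-Atp6, mt-Nd4l and mt-Nd3, 97.99% to 100% also occur in another annotated gene. For mt-Nd4 this share was 62.23% and for mt-Co1 51.14%, for mt-Nd2 and mt-Nd5 8.19% and 7.61%, and for mt-Nd1, mt-Nd6, mt-Cytb and mt-Atp8 0. The exception among low genes, mt-Atp8, overlaps mt-Atp6 on the same strand over 21.08% of its bases. The treatment of reads that match several places is not stated in the submitters' notes. The level is therefore uncertain for the 5 almost fully shared genes, and also for mt-Nd4 and mt-Co1.

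The copies themselves carried counts. Gm28661, which matches mt-Co2, had 27.2, 55.9, 44.7 and 72.2 CPM in WT and 28.7, 50.5 and 55.1 CPM in cKO. Both it and mt-Co2 were at their lowest in WT replicate 1 and at their next lowest in cKO replicate 1. Gm28438 had 50.8 CPM per kilobase in WT, above the 6.42 of mt-Nd3, from which it differs at 1 base.

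**Figure D5:**
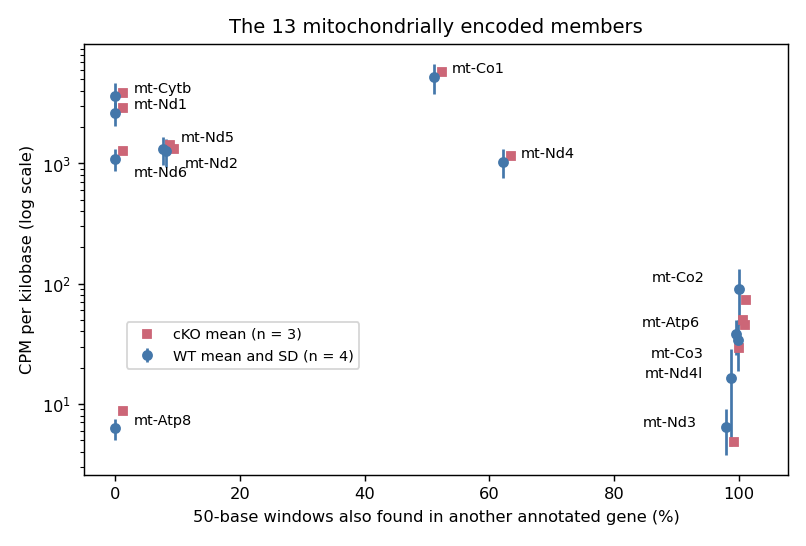
Level per kilobase of transcript (y axis, log scale) of the 13 mitochondrially encoded members against the percent of their 50-base windows found in another annotated gene (x axis); circles are WT means with SD (n = 4), and squares, set slightly to the right, are cKO means (n = 3). The 5 genes with over 97% shared windows lie under 100 CPM per kilobase, as does mt-Atp8.

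For mt-Co1 the levels were 5239, 9230, 7533 and 10612 CPM in WT and 7532, 9010 and 10342 CPM in cKO. The groups overlapped fully, and the fitted fold was 1.10 (95% interval 0.762 to 1.58). For mt-Cytb they were 2693, 4799, 3696 and 5377 CPM in WT and 4159, 4333 and 4814 CPM in cKO, with a fold of 1.07 (0.759 to 1.51). For mt-Nd1, which has no shared window, they were 1872, 2841, 2234 and 3134 CPM in WT and 2805, 2406 and 3078 CPM in cKO, with a fold of 1.10 (0.828 to 1.45). In all 3 genes WT replicate 1 was low and WT replicate 4 high.

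The complex I subunit mt-Nd6 lies on the opposite strand from the other protein genes of the mitochondrial chromosome, and without strand information its reads and those of a transcript opposite to it cannot be told apart. It had 442, 567, 524 and 721 CPM in WT and 695, 542 and 739 CPM in cKO (fold 1.17, 0.893 to 1.53). Among the mitochondrial members, the widest intervals were those of mt-Nd4l, mt-Co3, mt-Co2 and mt-Nd3, whose copies are nearly complete. For mt-Nd4l, counts were 42, 170, 69 and 45 in WT and 46, 69 and 351 in cKO, so that cKO replicate 3 alone lay above the WT range (fold 1.79, 0.457 to 6.98). For mt-Nd3 they were 21, 43, 33 and 47 in WT and 20, 32 and 35 in cKO (fold 0.754, 0.414 to 1.37). Only mt-Nd3 and mt-Co2 had fitted values under 0, −0.41 and −0.30 on the log2 scale. The 6 members with at most 50% of windows shared all lay above 0, with a median of 0.12.

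Between WT libraries the mitochondrial members varied more than the nuclear ones. The median SD of log2 CPM among WT was 0.442 over 13 mitochondrial and 0.123 over 81 nuclear members, against 0.179 over all tested features. With each set restricted to genes above 10 CPM, these values were 0.427, 0.123 and 0.133. Over the 6 mitochondrial members with at most 50% of windows shared, at any CPM, the median SD among WT was 0.35. Among cKO libraries the median SD was 0.358 over the mitochondrial and 0.207 over the nuclear members, and 0.209 over those 6, close to the nuclear value. The 2 mitochondrial rRNAs, which the same genome encodes, had a summed level of 232, 274, 329 and 371 CPM in WT and 414, 267 and 394 CPM in cKO, again lowest in WT replicate 1. Their reads come from libraries selected for poly(A).

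The 38 nuclear subunits of complex I, the entry point of electrons from NADH, had 35 of 37 tested values above 0 with a median of 0.11. The 6 tested core subunits, which carry the flavin and iron-sulfur clusters, were all above 0 (median 0.08), as were 29 of 31 supernumerary subunits (median 0.11). Ndufa1, a small membrane-arm subunit, had the smallest p in the complex. It was at 13.7, 16.7, 17.5 and 17.1 CPM in WT and 24.8, 19.7 and 16.2 CPM in cKO. The third cKO library lay inside the WT range, and the log2 fold change was 0.32 (SE 0.159, unadjusted p = 0.0793 in edgeR). Ndufb9 had 38.1, 38.3, 34.5 and 45.2 CPM in WT and 53.4, 43.8 and 39.6 CPM in cKO (fold 1.17, 0.956 to 1.43).

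Ndufa4, first described in complex I and since assigned to complex IV, had the highest level per kilobase of the nuclear genes with a complex I name, 215 CPM per kilobase in WT. It made up 91.1% ± 3.39 (SD, n = 4) of the summed level of Ndufa4 and its hypoxia-inducible paralog Ndufa4l2, per kilobase, in WT and 92.1% ± 2.1 (SD, n = 3) in cKO. Ndufa4l2 was at 26.3, 11.1, 21.9 and 17.8 CPM in WT and 29.3, 16.2 and 13.9 CPM in cKO, a spread of over 2-fold within each group. The NADH-binding subunit gene Ndufv1 had 119 to 141 CPM in WT and 120 to 150 CPM in cKO. The largest catalytic subunit gene, Ndufs1, had 103 to 116 CPM in WT and 105 to 116 CPM in cKO.

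Ndufs3 and Ndufa12 have pseudogenes with counts of their own, and the part of these in the levels of both genes was not tested. Ndufs3, a core subunit, had 0, 1, 0 and 9 counts in WT and 0 in every cKO library, and was not tested. A count of 0 allows up to 3 counts in such a library, by counting error alone. Its processed pseudogene Gm12251, which holds 15.97% of its 50-base windows, had 858 counts over the 7 libraries. Ndufa12 had 137, 280, 549 and 280 counts in WT and 318, 304 and 253 in cKO, and its pseudogene Gm15920, with 17.74% of its windows, had 3711 over the 7 libraries. Ndufa12 was also the nuclear member with the widest range between libraries, 4.29-fold, and the only one in complex I apart from Ndufb2 with a value under 0 (log2 fold change −0.16, SE 0.434, and above 0 with limma-voom).

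Complex II, succinate dehydrogenase, is the only complex with no mitochondrially encoded subunit and also an enzyme of the citric acid cycle. Sdha, the flavoprotein that oxidises succinate, had 261, 288, 267 and 262 CPM in WT and 270, 268 and 255 CPM in cKO. The groups overlapped almost entirely, and the fold was 0.981 (0.872 to 1.10). Its iron-sulfur partner Sdhb had 128, 130, 129 and 138 CPM in WT and 166, 135 and 124 CPM in cKO (fold 1.08, 0.918 to 1.27). Among the membrane anchors, Sdhc averaged 124 ± 4.00 CPM in the WT libraries (SD, n = 4) and 131 ± 13.9 CPM in the cKO libraries (SD, n = 3), and Sdhd 136 ± 10.5 and 146 ± 14.9 CPM. Sdhb, Sdhc and Sdhd were each highest in cKO replicate 1.

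All 9 nuclear subunits of complex III, which passes electrons from ubiquinol to cytochrome c, had values above 0 with a median of 0.13. Cyc1, its cytochrome c1, had 199, 225, 206 and 225 CPM in WT and 229, 235 and 220 CPM in cKO. The lowest cKO library lay under 2 of the WT libraries, and the fold was 1.07 (0.941 to 1.21). Uqcr10, the nuclear-encoded member with the highest level per kilobase in the complex, had 85.3, 93.2, 85.3 and 97.0 CPM in WT and 115, 101 and 86.4 CPM in cKO (fold 1.12, 0.948 to 1.32). The core subunit gene Uqcrc1 stood apart at 6.42 CPM per kilobase in WT, while Uqcrc2, its partner in the core, had 116. Uqcrc1 had 7.57, 14.4, 7.70 and 12.8 CPM in WT and 8.10, 9.71 and 21.3 CPM in cKO. It was highest in cKO replicate 3, where most nuclear members were low, and none of its 50-base windows occurs in another annotated gene. Whether the counts of Uqcrc1 reflect its RNA level was not tested.

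Complex IV, cytochrome c oxidase, had 13 of 14 tested nuclear subunits above 0 and a median of 0.15. Cox7b, a small structural subunit, had the smallest p of all 94 members. It was at 89.7, 97.5, 88.6 and 103 CPM in WT and at 124, 107 and 99.0 CPM in cKO, where only the lowest cKO value fell inside the WT range. The fold was 1.16 (0.996 to 1.35), with an unadjusted p of 0.0546 in edgeR and 0.114 in an exact two-sided permutation test. Cox7a2 had 85.7, 102, 84.5 and 94.3 CPM in WT and 128, 98.2 and 93.0 CPM in cKO (fold 1.16, 0.955 to 1.41).

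Cox7a1, the isoform typical of heart and skeletal muscle, was the only member whose groups did not overlap, with cKO above WT. Over all tested features 1.3% did not overlap in this direction, so that 1 of 94 members is near the background. Its levels were 4.86, 5.13, 5.38 and 5.09 CPM in WT and 5.97, 7.17 and 5.53 CPM in cKO. The fold was 1.22 (0.938 to 1.57), and edgeR's adjusted p was 1.0. The exact two-sided permutation test gave p = 0.0286, the smallest that 35 divisions of 7 libraries allow. In a gene picked because its groups do not overlap, such a p is at or near that minimum, so it adds no support. Cox7a1 was highest in cKO replicate 2, in which striated muscle markers summed to 81.2 CPM, against 359 CPM in cKO replicate 3. The part of muscle in its levels was not tested.

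Several complex IV subunits have a widely expressed and a tissue-restricted isoform, and the widely expressed form made up nearly all of the level per kilobase. Cox4i1 was 98.8% ± 0.591 of its pair in WT (SD, n = 4) and 99.0% ± 0.169 in cKO (SD, n = 3), the rest being Cox4i2, the isoform of lung and of hypoxic cells. For Cox6b1 the share was 92.5% ± 0.956 in WT (SD, n = 4) and 92.1% ± 0.804 in cKO (SD, n = 3), the rest being Cox6b2, known from testis. In the Cox7a family, Cox7a2 held 48.3% and Cox7a2l, a factor of supercomplex assembly, 47.1% in WT, and Cox7a1 4.55%. In cKO these shares were 50.9%, 44.0% and 5.07%.

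The muscle isoform Cox6a2 had 0, 2, 1 and 0 counts in WT and 4, 2 and 14 in cKO, and was not tested. Its 14 counts fell in cKO replicate 3, the library with 359 CPM of striated muscle markers (9 of 11 tested), and the part of muscle in this count was not tested. Cox8b, another muscle isoform, had 0 or 1 count in every library, as had Cox7b2, a paralog known from testis. Among nuclear-encoded subunits of the complex, the highest levels per kilobase were those of Cox6a1 at 499, Cox4i1 at 403 and Cox8a at 372 CPM per kilobase in WT.

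Complex V had 16 of 17 nuclear subunits above 0 and a median of 0.11. Atp5b, the catalytic beta subunit, had the highest level per kilobase of all nuclear members (810 in WT), and it was also the steadiest across libraries, with a 1.12-fold range. It was at 1478, 1647, 1473 and 1610 CPM in WT and 1629, 1622 and 1516 CPM in cKO, with a fold of 1.02 (0.900 to 1.17). Atp5a1, the alpha subunit that pairs with beta in equal number in the enzyme, was at 38.3 ± 7.14 CPM (SD, n = 4) in WT and 39.4 ± 1.55 CPM (SD, n = 3) in cKO, or 15.9 CPM per kilobase in cKO, where Atp5b had 829. Of its 50-base windows 2.49% occur in another gene. Whether the counts of Atp5a1 reflect its RNA level was not tested. The smallest p in the complex was that of Atp5l, a subunit of the membrane part, with 54.8, 61.4, 56.3 and 67.3 CPM in WT and 79.5, 63.8 and 60.7 CPM in cKO (fold 1.13, 0.945 to 1.36).

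Subunit c, which forms the rotor ring of ATP synthase, is encoded by Atp5g1, Atp5g2 and Atp5g3, whose mature proteins are the same. Per kilobase, Atp5g3 made up 57.6% ± 0.589 in WT (SD, n = 4) and 58.8% ± 1.57 in cKO (SD, n = 3). Atp5g2 made up 38.1% ± 0.370 in WT (SD, n = 4) and 36.6% ± 1.66 in cKO (SD, n = 3). Atp5g1 had the remaining 4.30% and 4.65%. These shares rest on annotated transcript lengths, 4715 bases for Atp5g1 and 723 for Atp5g3, and 38.35% of the windows of Atp5g2 occur in other genes.

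The 5 members printed with an NRF1 motif had log2 fold changes of 0.14 (Cox6a1), 0.06 (Ndufa11), 0.11 (Atp5k), −0.03 (Atp5g2) and 0.18 (Atp5l), inside the range of the other nuclear members. Of all 8 members with the motif, 7 were highest in cKO replicate 1, as were 69 of the 81 nuclear members tested, and Uqcrc1 was highest in cKO replicate 3.

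Around the complexes, genes that build, feed or copy the respiratory chain were read from the same fit, and 0 were called in any list. Assembly factors, which are not part of the finished complexes, had 10 of 15 values above 0 for complex I (median 0.10), 8 of 10 for complexes II and III (0.11), 12 of 19 for complex IV (0.04) and 6 of 6 for complex V (0.14). Cytochrome c and coenzyme Q synthesis had 10 of 15 (0.02), and the citric acid cycle 13 of 22 (0.03). Genes that maintain and transcribe mitochondrial DNA had 11 of 28 above 0 with a median of −0.01, and their summed level was 893 to 968 CPM in all 7 libraries. Regulators of mitochondrial biogenesis had 8 of 16 (median −0.00), carriers and import 11 of 20 (0.02), and glycolysis and hypoxia genes 11 of 24 (−0.00). Genes of mitochondrial dynamics and quality control had 7 of 14 (0.00). The difference between these lists and the subunits was not tested. At an unadjusted p under 0.05 edgeR listed 1 gene of the mitochondrial ribosome and 1 of mitochondrial dynamics, and DESeq2 and limma-voom called 0 in every list.

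In these lists the gene with the smallest p was named by rule, and levels are given for Mfn2, Mrpl12, Eno1 and Atpif1 only. For the other lists these genes were Foxred1, Sdhaf1, Coa6, Coq7, Top3a, Pparg, Pdk3 and Phb, each with overlapping groups. Mfn2, a fusion protein of the outer mitochondrial membrane, had 76.7, 66.2, 71.2 and 66.2 CPM in WT and 61.1, 60.9 and 61.1 CPM in cKO. Every cKO library lay under every WT library, but the log2 fold change of −0.20 (SE 0.0794) did not pass the test (edgeR adjusted p = 1.0). Mrpl12, a mitochondrial ribosomal protein, had 47.7, 56.2, 52.1 and 59.1 CPM in WT and 62.5 ± 2.17 CPM (SD, n = 3) in cKO, where every library was above WT, with a log2 fold change of 0.22 (SE 0.0906, edgeR adjusted p = 1.0). Over all tested features 2.72% had groups that did not overlap in either direction. Eno1, a glycolytic enzyme, had 757, 705, 559 and 787 CPM in WT and 659, 582 and 559 CPM in cKO (fold 0.855, 0.701 to 1.04). Atpif1, the inhibitor of ATP synthase, had 64.3 to 76.7 CPM in WT and 81.9 ± 19.6 CPM (SD, n = 3) in cKO, with 105 CPM in cKO replicate 1 (log2 fold change 0.25, SE 0.146).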

How the data were processed

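The values are raw counts of reads per feature, whole and unscaled, in 1 table that the authors deposited. Per the submitters' processing notes, the tools include HISAT2, StringTie and featureCounts and the build mm39, with no role or version stated. Per the labels' protocols, RNA was selected with poly-T beads and copied with random hexamers in a NEBNext kit, and no strand-keeping step is described. Columns were matched by group and replicate number, and 0 columns were left unused. The column of WT replicate 4 carries another number in its group name than the other 6 columns, with no meaning stated, so a batch behind it was not tested. The 315 features with a running number only (0.206% of counts) stayed in the fit.

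Symbols, biotypes and transcript lengths came from GENCODE M21 on GRCm38, another build, so no member coordinates are given from the files. Symbols were found for 26780 of 26823 identifiers. Level per kilobase is CPM divided by the length of the longest principal coding transcript. Windows of 50 bases of each member were searched in the transcripts of all other genes. Promoters were from RefSeq (GRCm38.p6), and the NRF1 motif was set to its present length after matches of a longer form had been seen.

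The count test was that of edgeR 4.0.16, run in R 4.3.3 (filterByExpr, TMM, robust glmQLFit and glmQLFTest, group as the only term), with Benjamini-Hochberg adjustment over 16910 features and a threshold of 0.05. Library totals scaled by TMM gave CPM, and a prior count of 2 was added for log2 CPM. SEs and 95% intervals came from the fitted coefficient and its F statistic. Alternatives were DESeq2 1.42.0, limma-voom (limma 3.58.1), other scalings and filters, a replicate block and leaving out each library. For single genes a two-sided exact permutation test used the 35 divisions of the libraries. The scripts were tested on simulated data. Shares of mitochondrial counts had 95% binomial intervals (Wilson score) within 0.008 percentage points. Such intervals, and the floor of 3 counts, take in counting error only, as PCR duplicates are not separate molecules.

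The members, lists and rules were chosen with earlier results of these data known. Named genes were the targeted gene, every mitochondrial member, per complex the 2 members with the smallest p and the highest level per kilobase, Sdha to Sdhd, Cyc1, the isoform families, members whose groups do not overlap and the gene with the smallest p of each other list. Ndufs3, Ndufa12, Ndufb2, Uqcrc1, Uqcrc2, Uqcr11, Atp5a1, Ndufv1, Ndufs1, Ndufa8, Atp5k and Ndufa11 were named after their values were seen.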

Additional observations from a re-analysis of the deposited data

How the results depend on the processing

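The count of members called was 0 under every alternative run: DESeq2 and limma-voom as tests, DESeq2 size factors, library totals, scaling without genes of the mitochondrial chromosome, no filter, a filter at 1 CPM in 3 libraries, the replicate block, each library left out, and both libraries highest in liver markers left out (chosen after seeing the data). The count of all features called was 1 in the reported fit. Scaling by library totals or by DESeq2 size factors gave 0, as did the 1 CPM filter; omitting the filter gave 4, the DESeq2 test 13 (2 higher, 11 lower) and leaving out 1 library 0 to 3. The replicate block, which takes libraries with the same number as pairs, gave 13 (6 higher, 7 lower), with member medians of 0.15 (nuclear) and 0.32 (mitochondrial). Deviations of same-numbered libraries correlated at 0.284, 0.419 and 0.0597, and those of differently numbered libraries at −0.522 to 0.296. Whether the numbers mark pairs is not stated and was not tested, and each library is an independent animal. The targeted gene passed with DESeq2 (adjusted p = 1.25e-09), and with edgeR without a filter or with the block. With 1 library left out the nuclear median ranged from 0.01 to 0.20, the mitochondrial median from 0.0012 to 0.28, and the log2 ratio difference from −0.11 to 0.23. Leaving out cKO replicate 1 changed the sign of 31 of 81 nuclear members. Leaving out WT replicate 1 or cKO replicate 3 changed that of 4 of 13 mitochondrial members each. Library totals turned the sign of Ndufa3, limma-voom those of Ndufa12 and Atp5s, and the other scalings run turned none. Without members that share over 50% (mitochondrial) or over 10% (nuclear) of windows, medians were 0.12 and 0.11. Counts were 0 to 14 per library for Cox6a2, Cox7b2, Cox8b and Ndufs3, 17 to 43 for mt-Atp8 and 20 to 47 for mt-Nd3, which limits their precision. For 11 of 13 mitochondrial members, the 95% interval reached beyond a 1.5-fold change.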
